A study of Mus musculus with 14 samples.

Results

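The genes of the 5 oxidative phosphorylation complexes were followed in central regulatory T cells (cTregs) and effector regulatory T cells (eTregs) with and without a floxed deletion of Atg14. The members were every gene whose symbol opens as a nuclear gene of these complexes is named (Nduf with a subunit letter, the 4 Sdh subunits, Uqc, Cox4 to Cox8, and Atp5), and where a symbol had several transcript clusters the brightest was kept. That gave 87 genes, from 89 rows, of 21902 gene symbols on the Clariom S mouse array. Of these, 36 were placed with complex I, 4 with complex II, 11 with complex III, 20 with complex IV and 16 with complex V. Their symbols do not always say where the protein sits. Ndufa4 and its paralogue Ndufa4l2 were named for complex I and were grouped with complex IV, where the NDUFA4 protein resides, and Atp5sl (Dmac2 in RefSeq) was named for ATP synthase and was grouped as a complex I assembly factor. The 87 genes held 73 subunits in common use, 8 tissue-restricted isoforms of complex IV, 5 assembly or coupling factors (Atp5sl, Uqcc1, Uqcc2, Uqcc3 and Atp5s) and the supercomplex factor Cox7a2l. The array table matched 0 of the 13 subunits encoded by mitochondrial DNA, so all values concern nuclear transcripts.

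The 14 arrays formed 4 groups. Control cells gave 4 arrays of each subset, and cells labelled KO gave 3 of each. The cells came from mixed bone marrow chimeras, for which CD45.2+ marrow of Foxp3CreAtg14+/fl (control) or Foxp3CreAtg14fl/fl (KO) donors was combined in equal parts with CD45.1+ wild-type marrow and given to sublethally irradiated Rag1-/- hosts 6 to 8 weeks before use. Cre was thus driven by the Foxp3 locus and was present in the control cells too, which carried 1 floxed allele of Atg14, and wild-type cells shared each host. The CD45.2+CD4+Foxp3-YFP+ cells were sorted from lymphoid tissue as CD44-CD62L+ (cTreg) or CD44+CD62L- (eTreg) cells, and each array of a subset came from a different chimera. The mouse lines of the study had a C57BL/6 background. Both sexes were used in the study, and neither the sex of each animal nor the age of the chimeras was given in the sources used here. Atg14, the targeted gene, was not lower in the arrays labelled KO. Its log2 signal was 9.24 to 9.33 in cTregs labelled KO and 8.64 to 9.26 in control cTregs, and 9.004 to 9.32 in eTregs labelled KO and 8.64 to 9.01 in control eTregs. It was higher by 0.35 ± 0.14 (SE, adjusted P = 1.00 by limma) in the cTregs and by 0.32 ± 0.14 (SE, adjusted P = 0.550) in the eTregs labelled KO. Whether the probes lie in the deleted part was not given, so the signal does not check the genotype labels. Foxp3, Cd4 and Cd3e, the defining transcripts of the sorted cells, had log2 signals of 12.46 to 13.25 over all arrays, while the background probes had a median of 6.00 to 6.30.

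Oxidative phosphorylation is the last stage of respiration, and it takes place in the inner mitochondrial membrane. Complex I accepts electrons from NADH and complex II from succinate, complex III passes them from ubiquinol to cytochrome c, and complex IV hands them to oxygen. The proton gradient that complexes I, III and IV build drives ATP synthase, also called complex V. Regulatory T cells rely on this route more than conventional effector T cells do, and mitochondria are among the cargoes that autophagy, the process in which Atg14 takes part, removes.

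The arrays differed from one another in the level of all 5 complexes at once. For each gene the deviation of an array from that gene's mean over the 14 arrays was taken, and the median deviation of the 87 genes described the array. It was -0.21, 0.06, -0.02 and 0.22 on the log2 scale in control cTregs 1 to 4, and -0.04, 0.18 and 0.04 in cTregs labelled KO 1 to 3. It was -0.20, 0.04, -0.08 and -0.08 in control eTregs 1 to 4, and -0.13, 0.18 and 0.08 in eTregs labelled KO 1 to 3. The array numbered 1 was the lowest in each of the 4 groups, and every pair of groups overlapped. The 4 arrays numbered 1 also had the narrowest spread of signal over all transcript clusters, with an interquartile range of 2.57 to 2.75 against 2.79 to 2.94 in the other arrays. What part this spread has in the level of the members was not tested. In control eTregs the group mean of the median deviation was -0.08 ± 0.10 (SD, n = 4), against 0.01 ± 0.18 (SD, n = 4) in control cTregs, 0.06 ± 0.11 (SD, n = 3) in cTregs labelled KO and 0.04 ± 0.15 (SD, n = 3) in eTregs labelled KO, so the groups lay closer together than the arrays within them.

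**Figure D1:**
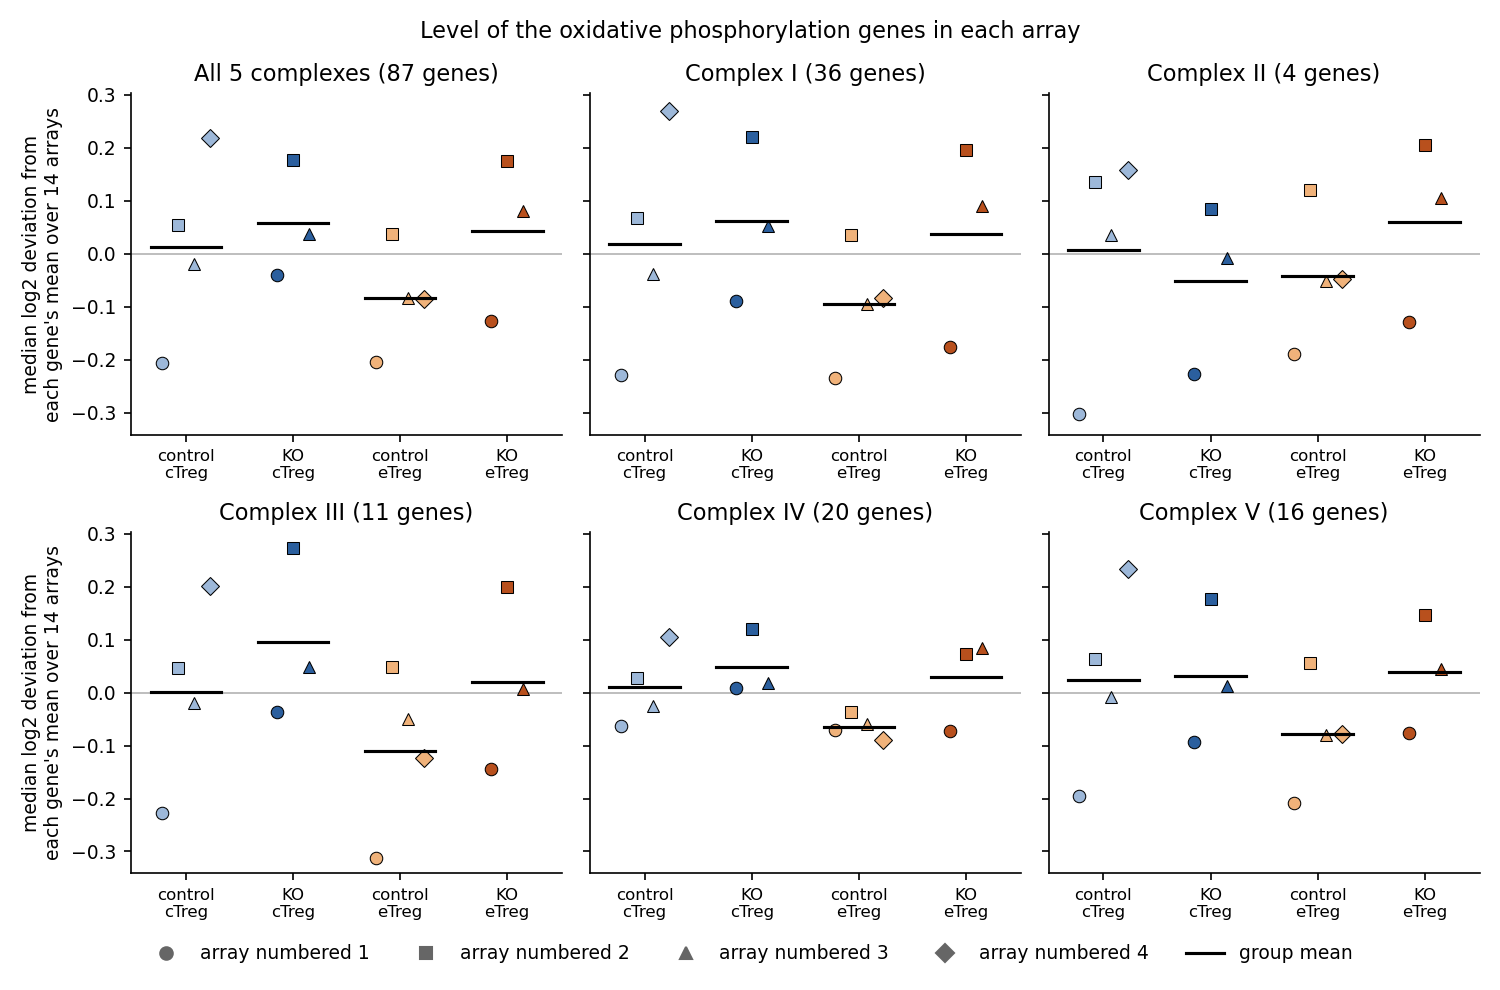
Median log2 deviation of the member genes from each gene's mean over 14 arrays (y axis), for all 87 genes and for each complex, in the 4 groups (x axis). Each point is 1 array, its shape gives the array's number and lines are group means. The arrays numbered 1 lie at -0.21, -0.04, -0.20 and -0.13 in the panel of all genes, the lowest point of each group.

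The genes that made up this shared movement were mainly the common subunits. After the group means were removed, the 2628 pairs of common subunits had a median Pearson correlation of 0.77 over the 14 arrays (0.43 once all arrays were given the same interquartile range, and 0.69 without the 4 arrays numbered 1), while the residuals of the other 22116 transcript clusters correlated with those of the members at a median of -0.08. These are descriptions over arrays that share their normalization, not tests. Of the members, 82 had a mean signal above the median of all clusters, whereas the other clusters were not chosen by signal. Their median was not recomputed for bright clusters or with equal interquartile ranges. Whether other bright clusters move together in the same way was thus not tested. Among the common subunits of each complex the median was 0.78 for complex I, 0.59 for complex II, 0.72 for complex III, 0.82 for complex IV and 0.75 for complex V. With equal interquartile ranges these medians were 0.51, 0.55, 0.20, 0.55 and 0.40, so that of complex III fell the most. Ndufb7 (0.88) and Ndufc2 (0.87), accessory subunits of the membrane arm of complex I, followed the other common subunits most closely of all subunits. A few subunits did not move with the rest. The median correlation was 0.02 for Atp5b, the catalytic beta subunit of ATP synthase, 0.03 for Ndufs1, the largest iron-sulphur subunit of complex I, 0.04 for Cox7c and 0.13 for the complex III core protein Uqcrc2. Among the factors, Uqcc3 (0.88) moved with the subunits whereas Uqcc1 (0.24) and Atp5sl (0.42) did so less closely. All 8 tissue-restricted isoforms lay below 0, from -0.66 for Cox7b2 to -0.03 for Cox6b2. Each of these isoforms had a lower signal than its common isoform, as given below. The correlations of single genes were not recomputed with equal interquartile ranges, and the part of signal level in them was not tested.

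**Figure D2:**
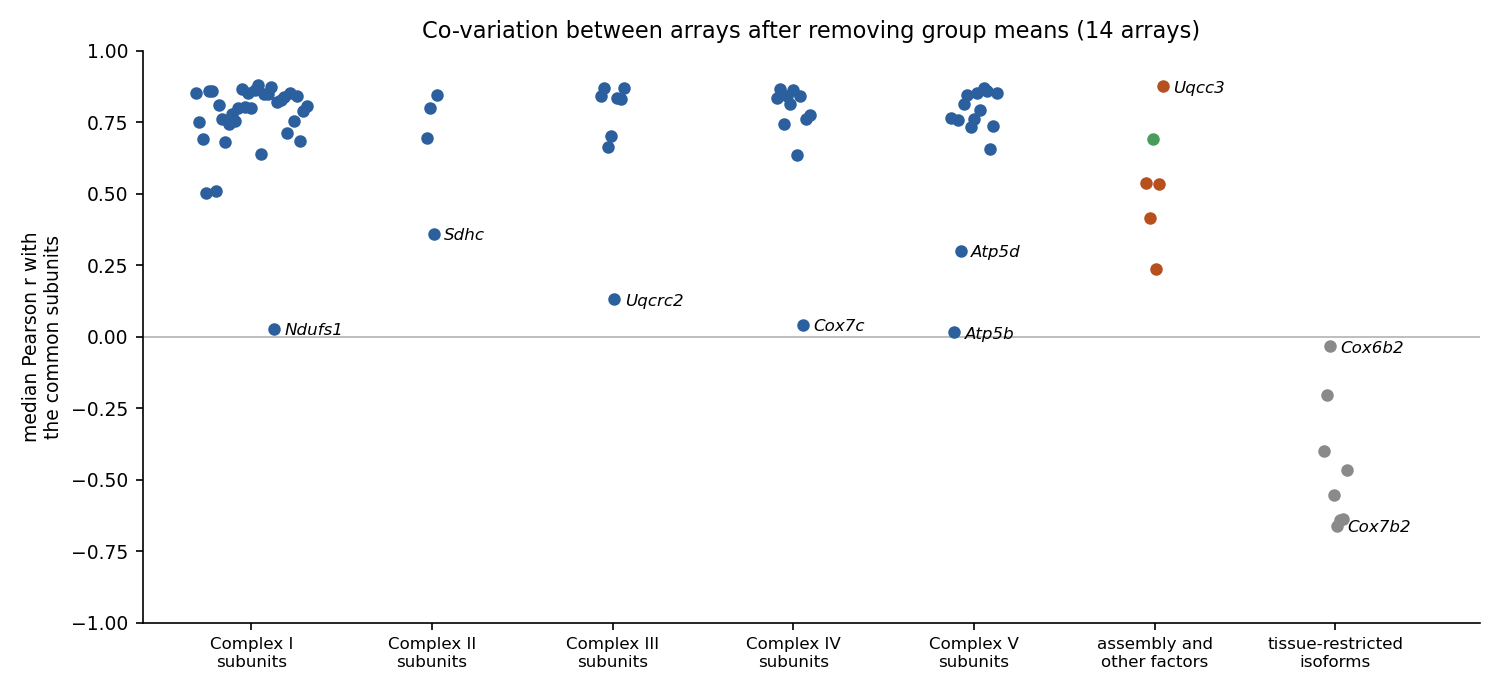
Median Pearson correlation (y axis) of each of the 87 genes with the 73 common subunits, over the 14 arrays after group means were removed, by complex and class (x axis); each point is 1 gene. Most common subunits lie above 0.5, Atp5b, Ndufs1 and Cox7c lie near 0 and the 8 tissue-restricted isoforms lie between -0.66 and -0.03.

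The promoters of the members were searched for letters known from nuclear genes of mitochondrial proteins. RefSeq (GRCm38.p6) gave 78 promoter windows of 300 bases, from 250 before to 50 after a transcription start, for 72 of the 87 members, matched by gene identifier. On either strand, GCATGCGC, the core of the site of nuclear respiratory factor 1, stood in 10 of the 78 windows (12.8%) and in 2.71% of all 32851 windows. AAGATGGC, the core that YY1 is known to bind, stood in 13 windows (16.7%) and in 2.75% of all. CCGGAAGT, an ETS-type core, stood in 5 windows (6.41%, and 3.89% of all), and GGGGCGGGG, an Sp1-type core, in 14 (17.9%, and 11.4% of all). A match describes letters and not a bound site. The windows of the 4 members that lead the genotype comparisons described next, and of Sdhb, are shown 5′ to 3′ with every match in capitals; Atp5sl has 2 listed starts, of which the upstream one is shown. AAGATGGC stands in those of Atp5sl, Uqcc2 and Ndufb8, GGGGCGGGG in that of Uqcc2 and, on the opposite strand, in that of Sdhb, GCATGCGC in that of Sdhb, and none of the 4 in that of Cox7a2.
Atp5sl, chr7:25619164-25619463, plus strand: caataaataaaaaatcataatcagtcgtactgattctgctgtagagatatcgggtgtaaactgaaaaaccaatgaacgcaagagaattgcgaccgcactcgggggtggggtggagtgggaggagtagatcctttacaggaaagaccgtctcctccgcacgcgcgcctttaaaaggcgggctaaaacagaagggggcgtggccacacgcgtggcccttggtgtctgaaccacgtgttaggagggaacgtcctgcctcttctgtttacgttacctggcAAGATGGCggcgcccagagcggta
Uqcc2, chr17:27133842-27134141, minus strand: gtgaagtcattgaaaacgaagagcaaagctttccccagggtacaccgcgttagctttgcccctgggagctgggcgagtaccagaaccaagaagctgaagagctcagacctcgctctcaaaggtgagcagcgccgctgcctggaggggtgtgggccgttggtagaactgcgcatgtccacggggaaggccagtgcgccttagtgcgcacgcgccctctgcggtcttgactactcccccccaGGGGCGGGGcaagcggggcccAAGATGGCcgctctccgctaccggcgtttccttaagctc
Ndufb8, chr19:44555393-44555692, minus strand: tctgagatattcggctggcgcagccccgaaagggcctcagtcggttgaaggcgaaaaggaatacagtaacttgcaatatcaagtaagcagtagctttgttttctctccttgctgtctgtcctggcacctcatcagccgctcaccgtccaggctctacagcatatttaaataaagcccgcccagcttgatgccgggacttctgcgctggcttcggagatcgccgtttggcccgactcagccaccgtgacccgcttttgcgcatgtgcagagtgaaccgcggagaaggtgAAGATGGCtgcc
Sdhb, chr4:140961021-140961320, plus strand: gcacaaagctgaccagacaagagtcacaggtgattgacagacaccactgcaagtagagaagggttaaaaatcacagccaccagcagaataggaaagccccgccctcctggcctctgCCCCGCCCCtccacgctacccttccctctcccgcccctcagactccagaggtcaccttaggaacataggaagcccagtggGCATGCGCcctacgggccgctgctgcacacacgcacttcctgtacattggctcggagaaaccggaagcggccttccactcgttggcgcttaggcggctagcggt
Cox7a2, chr9:79759804-79760103, minus strand: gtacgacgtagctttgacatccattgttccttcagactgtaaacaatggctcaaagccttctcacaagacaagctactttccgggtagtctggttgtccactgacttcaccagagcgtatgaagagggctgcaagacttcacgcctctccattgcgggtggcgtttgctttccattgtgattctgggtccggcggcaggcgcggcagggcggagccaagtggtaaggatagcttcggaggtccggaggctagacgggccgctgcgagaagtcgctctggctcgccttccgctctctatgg

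Control eTregs were then compared with control cTregs, which asks how the complexes differ between resting and activated regulatory T cells that keep 1 Atg14 allele. Most members were lower in control eTregs by a small amount: 72 of 87 were lower and 15 higher, where 50.7% of all transcript clusters were higher. The median log2 difference of the members was -0.08, against 0.00 over all clusters and -0.02 over the 11101 clusters with a mean signal above the median. As most members moved together between arrays, the 72 genes are not independent observations. At an unadjusted P below 0.05, 0 members were higher and 9 lower, beside 6.95% and 5.9% of all clusters. Leaving out control cTreg 4 gave 4 in place of 9, leaving out control cTreg 1 gave 15, and leaving out control cTreg 2 or 3 or control eTreg 1 or 4 gave 6 each. With the replicate number as a block it was 15. None of the 87 passed limma with Benjamini-Hochberg adjustment, which 3.58% of all clusters did, and the smallest adjusted P among members was 0.0590, for Atp5sl, whose adjusted P ran from 0.0185 to 0.168 over 25 alternatives and passed in some of them. In 3 members, Atp5sl, Cox7a2l and Cox8b, every control eTreg array lay below every control cTreg array, as in 5.02% of all clusters.

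By complex, 34 of 36 complex I genes were lower, with a median of -0.08. The 4 at an unadjusted P below 0.05 were Ndufv1 (-0.35 ± 0.16, SE) and Ndufs7 (-0.31 ± 0.15), core subunits of the NADH-oxidising and electron-transferring parts, the accessory subunit Ndufb10 (-0.39 ± 0.14) and Atp5sl (-0.36 ± 0.10). In complex II, Sdhb, the iron-sulphur subunit, was lower by 0.25 on the log2 scale, while Sdha, Sdhc and Sdhd differed by -0.02, 0.03 and 0.09. In complex III the differences were largest in the assembly factors: Uqcc2, which helps cytochrome b to be made and inserted, differed by -0.34 ± 0.12, Uqcc1 by -0.45 ± 0.23 and Uqcc3 by -0.27, whereas the 8 subunits ranged from -0.19 (the Rieske protein Uqcrfs1) to 0.03. In complex IV the 3 at an unadjusted P below 0.05 were Cox7a2l and the tissue-restricted isoforms Cox6b2 (-0.41 ± 0.15) and Cox8b (-0.36 ± 0.13); the 11 common subunits ranged from -0.13 to 0.06. In complex V, 15 of 16 genes were lower (median -0.12), all 9 subunits of the F1 head and the stalks among them, and 0 reached an unadjusted P below 0.05. Markers of other cell types moved with this contrast as well. Of the 10 monocyte and macrophage markers, 9 were higher in control eTregs, and their summed linear signal was 5583 to 7428 there and 2784 to 3169 in control cTregs. The sum of the dendritic and plasmacytoid markers was 4136 to 4324 against 3603 to 4034, and that of the CD8 T and NK cell markers 4936 to 5694 against 3038 to 3898. Of these lists 6 of 8 and 4 of 6 markers were higher. Among the lower ones was Cd8b1 (-0.62, adjusted P = 0.0319 by limma). The part of such cells in the members' difference was not tested. Leaving out control cTreg 1 moved the median to -0.16, and leaving out control cTreg 4 moved it to -0.02, the latter being the array with the highest member level.

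In cells labelled KO the same comparison gave a median closer to 0. Of the 87 members, 33 were higher and 54 lower in eTregs than in cTregs (40.4% of all clusters were higher), with a median of -0.02 against -0.04 over all clusters. At an unadjusted P below 0.05, 0 members were higher and 2 lower (7.64% and 6.12% of all clusters), smaller shares than over all clusters. None passed the adjustment (2.43% of all clusters), the smallest adjusted P being 0.231. The 2 became 0 without KO-labelled cTreg 2 or eTreg 3 and 1 without KO-labelled eTreg 1. It became 5 with the replicate number as a block and 8 with equal interquartile ranges. The 2 genes were Cox7a2l and Cox6b2, an isoform of subunit 6b best known from testis. Cox7a2l is known as a factor for joining complexes III and IV into supercomplexes, a role that was not measured in these cells. Cox7a2l and Cox6b2 were also among the 9 in control cells. The log2 signal of Cox7a2l was 12.12, 12.23, 12.11 and 12.41 in control cTregs and 11.73, 11.95, 12.09 and 11.96 in control eTregs. It was 12.28, 12.65 and 12.36 in cTregs labelled KO and 12.004, 12.22 and 12.04 in eTregs labelled KO. In each genotype all eTreg arrays lay below all cTreg arrays, and the differences were -0.29 ± 0.11 (SE, adjusted P = 0.258) in control cells and -0.34 ± 0.13 (SE, adjusted P = 0.231) in cells labelled KO. Without control eTreg 1 or cTreg 4 the first, and without KO-labelled eTreg 1, eTreg 3 or cTreg 2 the second, no longer had an unadjusted P below 0.05. Cox7a2l was given in full after its values were seen. For Cox6b2 the differences were -0.41 and -0.43, with control cTregs spread from 8.26 to 8.96 and the eTregs of both genotypes from 8.13 to 8.37. The sign of the KO-labelled median turned when eTreg 1 (0.07) or cTreg 2 (0.03) was left out, or when all arrays numbered 1 were (0.01). All 10 monocyte and macrophage markers were higher in these eTregs (5 with an adjusted P below 0.05), as were 6 of 8 dendritic and plasmacytoid markers (3 adjusted) and 5 of 6 CD8 T and NK cell markers (3 adjusted). The sum of the first was 4446 to 19407 against 3089 to 3632 in cTregs labelled KO, that of the second 5029 to 7385 against 3484 to 4006, and that of the third 4443 to 7414 against 3079 to 4806. Their part in the members' difference was not tested.

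**Figure D3:**
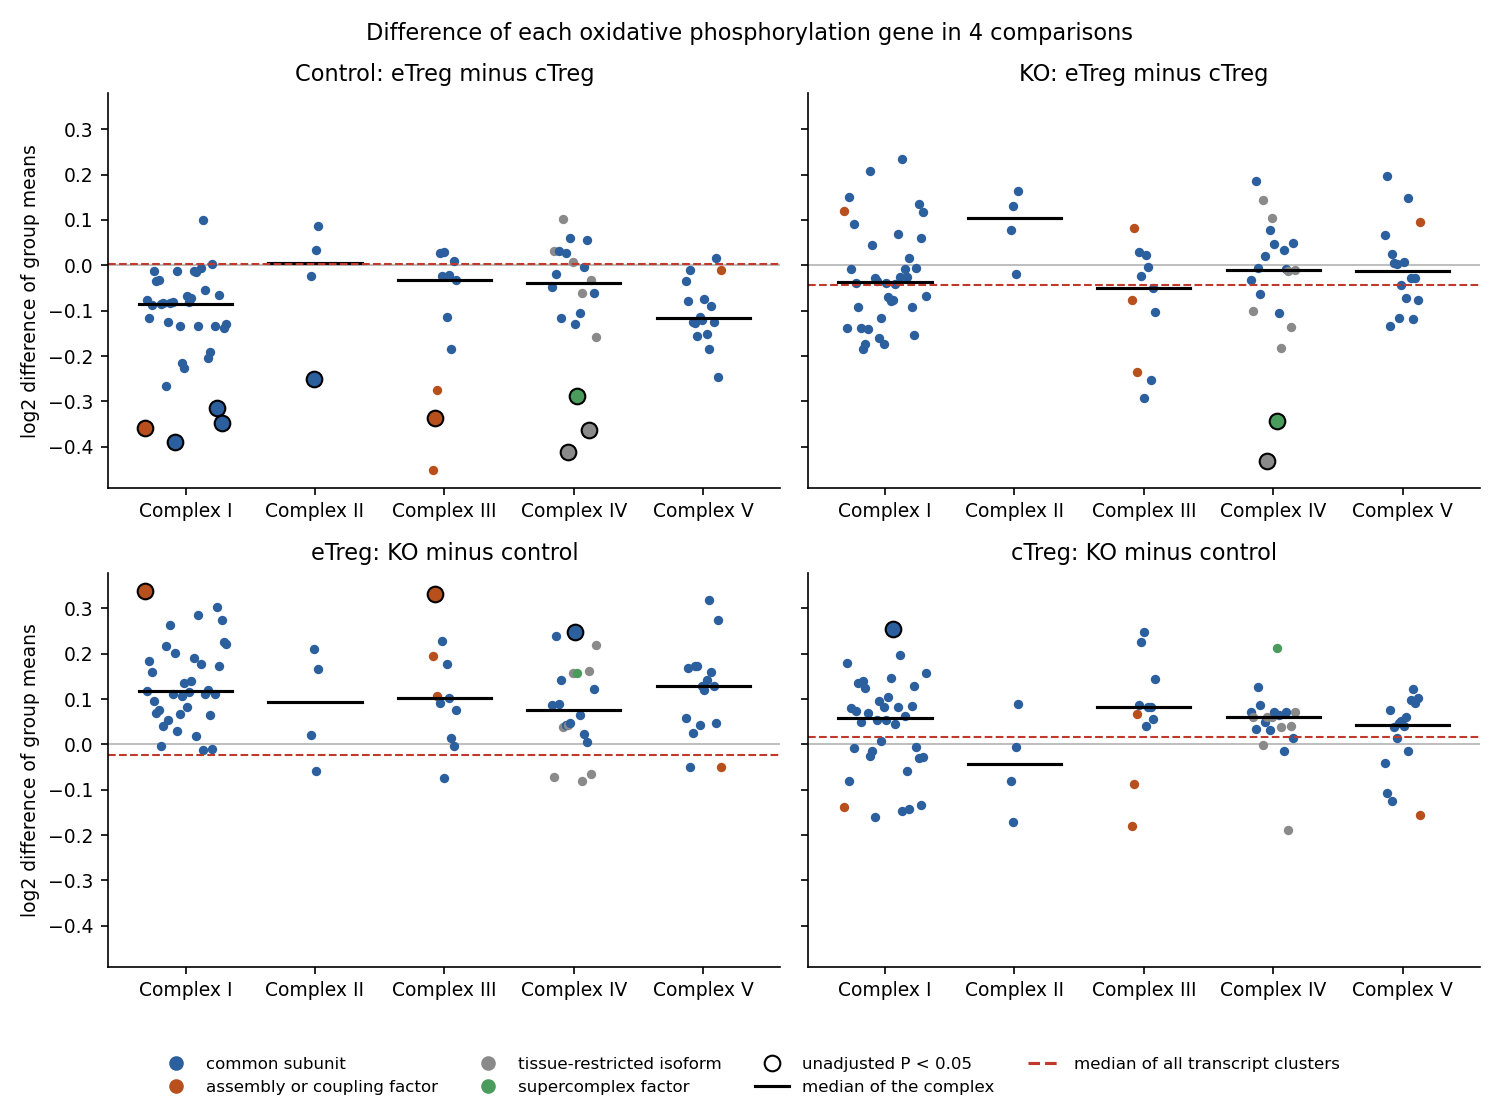
Log2 difference of group means (y axis) of each of the 87 genes by complex (x axis) in 4 comparisons. Each point is 1 gene, large outlined points have an unadjusted P below 0.05, black bars are medians of a complex and the dashed line is the median of all 22203 transcript clusters. In the eTreg panel of KO minus control, 76 of 87 points lie above 0, and in the control panel of eTreg minus cTreg 72 lie below 0.

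The comparison of eTregs labelled KO with control eTregs asks how the effector subset differs with the genotype label. All 5 complexes lay higher in the eTregs labelled KO, by little: 76 of 87 members were higher and 11 lower (44.2% of all clusters were higher), and the median log2 difference was 0.11, against -0.02 over all clusters and 0.00 over the 11101 brighter ones. The median was 0.12 in complex I, 0.09 in complex II, 0.10 in complex III, 0.08 in complex IV and 0.13 in complex V. Most members moved together between arrays, so neither the 76 genes nor the 5 complexes are independent observations. The array levels of KO-labelled and control eTregs overlapped. At an unadjusted P below 0.05, 3 members were higher and 0 lower (4.33% and 3.69% of all clusters), and 0 passed the adjustment (0.117% of all clusters). These counts are too small to set apart from the shares over all clusters, and they depend on the model. With the replicate number as a block 20 members had an unadjusted P below 0.05, and with array weights 11 did. Single differences ran from -0.08 to 0.34 with a median SE of 0.14, so no gene reached a log2 difference of 0.5. In 2 members, Atp5sl and the complex I subunit Ndufb8, every KO-labelled array lay above every control array, as in 3.01% of all clusters.

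Of the 3 members, Atp5sl, an assembly factor for the membrane arm of complex I, had the smallest P. Its log2 signal was 10.28, 10.14 and 10.27 in eTregs labelled KO and 9.73, 9.93, 9.84 and 10.07 in control eTregs. All KO-labelled arrays lay above all control arrays, and the difference was 0.34 ± 0.11 (SE; 1.27-fold; adjusted P = 0.312 by limma). In cTregs the order was the other way, with 9.98, 10.17 and 10.18 in arrays labelled KO and 10.10, 10.31, 10.28 and 10.30 in control arrays, which overlapped (-0.14).

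Uqcc2 of complex III had a log2 signal of 11.09, 11.51 and 11.35 in eTregs labelled KO and 10.83, 11.23, 10.87 and 11.02 in control eTregs. The groups overlapped, since KO-labelled eTreg 1 lay below control eTreg 2, and the difference was 0.33 ± 0.12 (SE; 1.26-fold; adjusted P = 0.453 by limma). Without KO-labelled eTreg 2 it was 0.23 and its unadjusted P was no longer below 0.05. Cox7a2, the common isoform of subunit 7a of complex IV, had 12.54, 12.95 and 12.69 in eTregs labelled KO and 12.37, 12.57, 12.52 and 12.48 in control eTregs. KO-labelled eTreg 1 again lay within the control range, and the difference was 0.25 ± 0.11 (SE; 1.19-fold; adjusted P = 0.567 by limma). Cox7a2 kept an unadjusted P below 0.05 in 19 of 25 alternatives, and without KO-labelled eTreg 2 the difference was 0.13. Of the windows shown, that of Cox7a2 is the one without any of the 4 motifs, while those of Atp5sl and Uqcc2 hold AAGATGGC. These letters stand in the windows of 12 members, and their part in the differences was not tested.

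**Figure D4:**
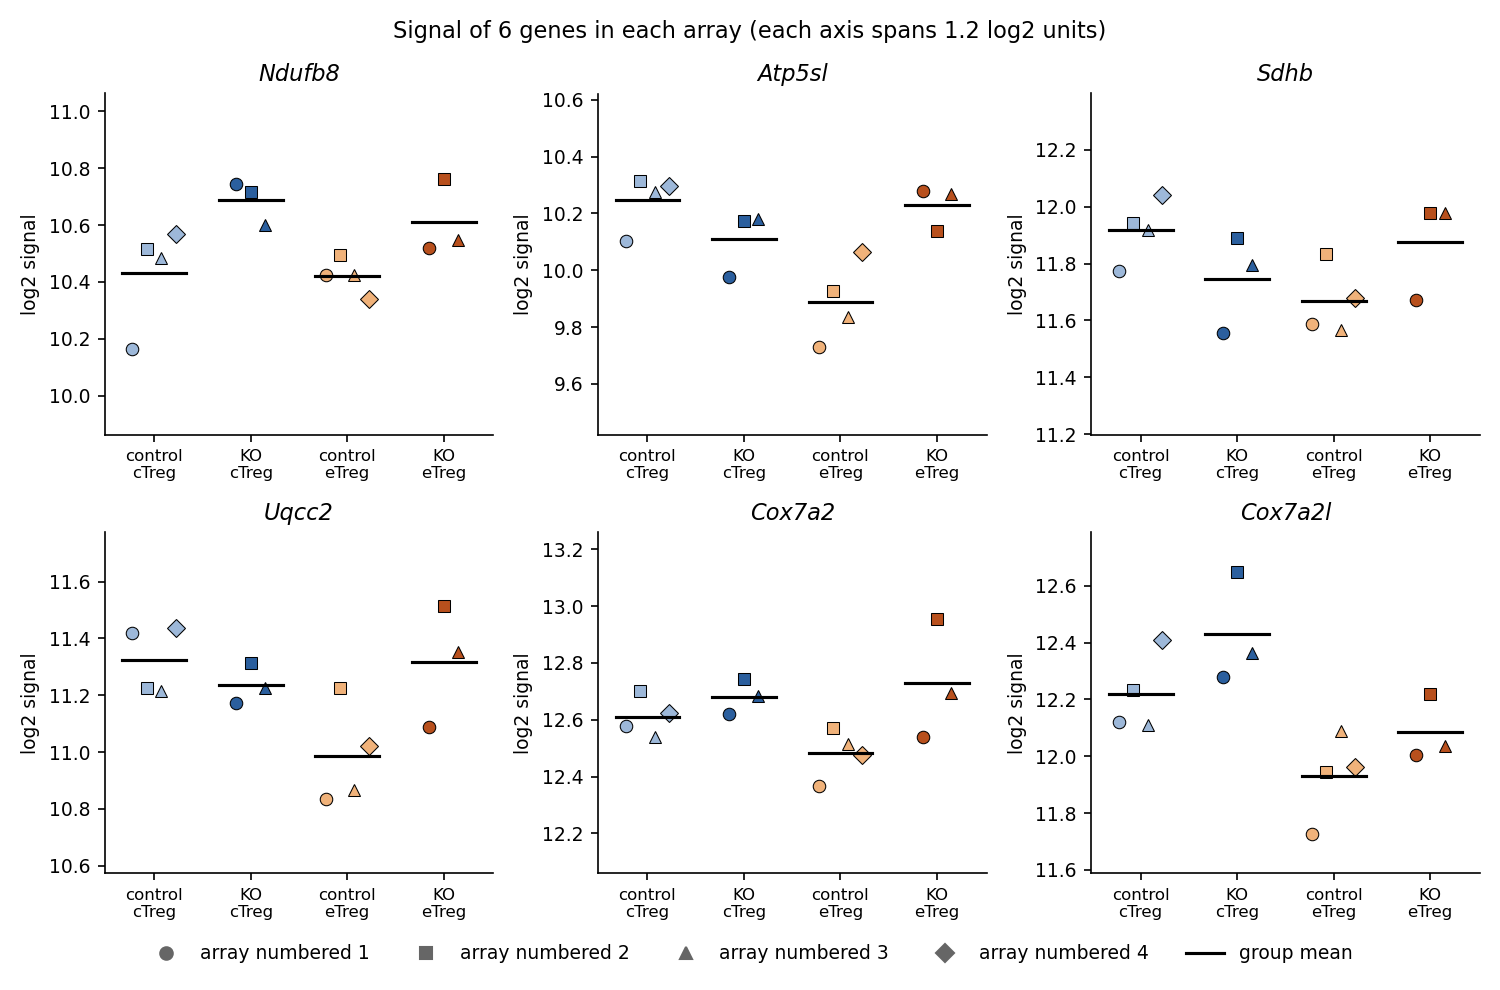
Log2 signal (y axis, 1.2 units in each panel) of 6 genes in each array of the 4 groups (x axis); point shapes give the array's number and bars are group means. Control eTregs have the lowest mean in all 6 panels, for Ndufb8 by little (10.42 against 10.43 in control cTregs). For Atp5sl and Ndufb8 all KO-labelled eTreg arrays lie above all control eTreg arrays.

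Among the other genes, the direction was shared within complexes while single genes did not pass. In complex I, 33 of 36 were higher, led after Atp5sl by Ndufs7 (0.30), Ndufc1 (0.29) and Ndufv1 (0.28), and the 3 that were not were Ndufs1 (-0.01), Ndufs5 (-0.01) and Ndufa3 (-0.00). In complex II, Sdhb (0.21) and Sdhd (0.17) were higher, Sdha differed by 0.02 and Sdhc by -0.06. In complex III, Uqcr11 (0.23) and Uqcrc1 (0.18) were the highest subunits and Uqcrb (-0.07) the lowest. All 11 common complex IV subunits were higher, from 0.01 for Cox8a to 0.25 for Cox7a2, with Cox5a at 0.24. In complex V the largest differences were those of Atp5j (0.32 ± 0.18, SE) and Atp5o (0.27). Both belong to the peripheral stalk, which holds the F1 head still against the rotor. Atp5f1 (0.17) and Atp5h (0.14) of the same stalk lay near the catalytic Atp5b (0.17). In the central stalk Atp5e differed by 0.17, Atp5d by 0.02 and Atp5c1 by -0.05.

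The KO-labelled eTreg arrays were not alike in the members' level, in markers of other cell types or in the spread of signal. The interquartile range was 2.71, 2.94 and 2.88 in KO-labelled eTregs 1 to 3, and its part in the members' level was not tested. The members' level was -0.13 in KO-labelled eTreg 1 and 0.18 and 0.08 in eTregs 2 and 3, and all 10 monocyte and macrophage markers were higher than in control eTregs (8 at an unadjusted P below 0.05, 0 adjusted). Their summed linear signal was 4446 in KO-labelled eTreg 1, 19407 and 18899 in eTregs 2 and 3, and 5583 to 7428 in control eTregs. That of the dendritic and plasmacytoid markers was 5029 to 7385 in the KO-labelled eTregs and 4136 to 4324 in control eTregs, that of the B cell markers 1974 to 2328 and 1716 to 1924, and that of the CD8 T and NK cell markers 4443 to 7414 and 4936 to 5694. Of these lists 6 of 8, 4 of 5 and 5 of 6 markers were higher. The part of such cells in the members' difference was not tested, and in these bulk samples more cells of a type and more RNA per cell cannot be told apart. Without KO-labelled eTreg 1, 14 members had an unadjusted P below 0.05 in place of 3 and the median was 0.19; without KO-labelled eTreg 2 the median was 0.04.

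In cTregs the comparison of genotypes gave less. Of the 87 members, 61 were higher and 26 lower in cTregs labelled KO (54.8% of all clusters were higher), with a median of 0.06 against 0.02 over all clusters. At an unadjusted P below 0.05, 1 member was higher and 0 lower (1.98% and 2.03% of all clusters), counts too small to set apart from those shares. With the replicate number as a block 5 members had such a P. None passed the adjustment (0.045% of all clusters). The 1 member without the block was Ndufb8, an accessory subunit of the membrane arm of complex I whose protein is lost when the complex fails to assemble. Its log2 signal was 10.74, 10.72 and 10.60 in cTregs labelled KO and 10.16, 10.52, 10.48 and 10.57 in control cTregs. The groups did not overlap, with control cTreg 1 the lowest array by far, and the difference was 0.25 ± 0.11 (SE; 1.19-fold; adjusted P = 1.00 by limma). Without control cTreg 1 it was 0.16 and without all arrays numbered 1 it was 0.14, neither with an unadjusted P below 0.05, which Ndufb8 kept in 18 of 25 alternatives. In eTregs Ndufb8 differed by 0.19 in the same direction, from 10.42, 10.50, 10.42 and 10.34 in control arrays to 10.52, 10.76 and 10.55 in arrays labelled KO. By complex the median was 0.06 in complexes I and IV, 0.08 in complex III, 0.04 in complex V and -0.04 in complex II, whose Sdhb (-0.17) and Sdha (-0.08) were lower and whose Sdhd (0.09) was higher. All 8 complex III subunits were higher, by 0.04 for Uqcrc1 to 0.25 for Uqcrb, which binds ubiquinone with cytochrome b. The median over members was -0.02 without control cTreg 1, -0.01 without KO-labelled cTreg 2 and 0.11 without control cTreg 4.

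Whether the genotype difference was larger in eTregs than in cTregs was tested by the interaction term. It was above 0 in 56 of 87 members (43.6% of all clusters), with a median of 0.05 against -0.03 over all clusters. At an unadjusted P below 0.05, 3 members were above 0 and 0 below (2.92% and 3.19% of all clusters), and none passed the adjustment, as was the case for all clusters (0%). These were Atp5sl (0.48 ± 0.15, SE; adjusted P = 0.736), Uqcc2 (0.42 ± 0.18, SE; adjusted P = 0.797) and Sdhb (0.38 ± 0.17, SE; adjusted P = 0.798). Of 24 alternatives, Atp5sl kept an unadjusted P below 0.05 in all 24, Uqcc2 in 16 and Sdhb in 15. Sdhb carries the iron-sulphur clusters through which succinate's electrons reach ubiquinone, and its 14 values were added after they were seen. Its log2 signal was 11.77, 11.94, 11.92 and 12.04 in control cTregs and 11.56, 11.89 and 11.80 in cTregs labelled KO. In eTregs it was 11.59, 11.83, 11.57 and 11.68 in control arrays and 11.67, 11.98 and 11.98 in arrays labelled KO. The genotype groups overlapped in both subsets, the KO-labelled mean being the lower in cTregs and the higher in eTregs. The control eTreg arrays enter this term, the eTreg comparison of genotypes and the control comparison of subsets, so these 3 sets of values are not separate evidence. The median of the interaction fell below 0 without control cTreg 4 (-0.02), KO-labelled cTreg 1 (-0.02) or KO-labelled eTreg 2 (-0.01), and with equal interquartile ranges (-0.01).

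The interaction divided 2 complexes by their parts. The 7 nuclear core subunits of complex I, among them the carriers of the flavin and the iron-sulphur clusters, all lay above 0, with a median of 0.20 and the highest value in Ndufv1 (0.41), whereas 14 of the 28 accessory subunits did so (median 0.00). The core subunits were at a median of 0.17 in the eTreg comparison and -0.03 in the cTreg comparison, and the accessory subunits at 0.11 and 0.08. In complex V the 9 subunits of the F1 head and the stalks had a median of 0.15 (8 of 9 above 0) and the 6 subunits of the membrane part one of 0.03 (4 of 6 above 0). All 6 of the latter, which form the c ring and its neighbours, were higher in cells labelled KO in both subsets. The split by parts is a description, and none of these subunits had an unadjusted P below 0.05 in the interaction.

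The tissue-restricted isoforms of complex IV were read beside their common isoforms. Over the 4 groups, the mean log2 signal of Cox7b2, known from testis, was 6.00 to 6.19, within or next to the 6.00 to 6.30 of the background probes, while its common isoform Cox7b was at 12.79 to 12.95. Ndufa4l2, the hypoxia-induced paralogue, was at 7.78 to 8.01 (Ndufa4 12.24 to 12.36), Cox8b at 8.11 to 8.47 and Cox8c at 8.996 to 9.13 (Cox8a 11.97 to 12.04), and Cox6b2 at 8.22 to 8.69 (Cox6b1 11.18 to 11.25). Cox4i2, the lung isoform, was at 8.80 to 8.90 (Cox4i1 12.78 to 12.89), and the heart and muscle isoforms Cox6a2 and Cox7a1 were at 9.86 to 10.001 (Cox6a1 12.16 to 12.36) and 9.23 to 9.39 (Cox7a2 12.48 to 12.73). Signals of different probes are set side by side and are not a ratio of transcripts. Between genotypes the 8 isoforms differed by -0.08 to 0.22 in eTregs and by -0.19 to 0.07 in cTregs, and 0 had an unadjusted P below 0.05 in either.

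Other genes of the pathway were read from 4 further lists. Of 43 assembly factors on the array, 34 were lower in control eTregs than in control cTregs (4 at an unadjusted P below 0.05, 0 adjusted, beside 5.9% and 3.58% of all clusters). In eTregs labelled KO 32 of the 43 were higher than in control eTregs, with a median of 0.09, where 44.2% of all clusters were higher and 4.33% were so at an unadjusted P below 0.05. The 4 at an unadjusted P below 0.05 in the latter were the complex I factors Ndufaf7 (0.45) and Tmem126b (0.42), Taco1 (0.33), which activates translation of a mitochondrial complex IV subunit, and the copper chaperone Cox11 (0.26). Of 18 genes of the tricarboxylic acid cycle, 14 were higher (median 0.10), and Idh2 (0.32) was the 1 with an unadjusted P below 0.05. Of 16 regulators of mitochondrial biogenesis, 11 were higher, with Polg, the mitochondrial DNA polymerase, at 0.21. In control cells 13 of these 16 were lower in eTregs, 6 of them at an unadjusted P below 0.05 (5.9% of all clusters). Of these, Myc alone passed the adjustment (-0.58 ± 0.12, SE, adjusted P = 0.00934 by limma). In the cTreg comparison of genotypes 18 assembly factors were higher and 25 lower, where 54.8% of all clusters were higher. Atpaf1 (-0.42) and Atpaf2 (0.37), both chaperones of the F1 head, had an unadjusted P below 0.05. Gabpa (-0.26), a subunit of the ETS-type factor GABP, and Coq5 (-0.37), an enzyme of ubiquinone synthesis from the list of carriers, had one there too. At that P 1.98% of all clusters were higher and 2.03% lower. None of the 4 lists held a gene that passed the adjustment between genotypes.

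Among 22 genes of electron carriers and inner membrane carriers, Gpd2, the glycerol phosphate dehydrogenase that feeds electrons from the cytosol into ubiquinone, differed most. Its log2 signal was 9.97, 9.45, 9.15 and 9.86 in control cTregs and 7.93, 8.72, 8.96 and 8.16 in control eTregs, groups that did not overlap (-1.17 ± 0.25, SE; adjusted P = 0.0132). In eTregs labelled KO it was 10.21, 9.12 and 9.85, above every control eTreg array (1.29 ± 0.27, SE; adjusted P = 0.0973), and in cTregs labelled KO 9.60, 10.01 and 9.86. Pdss1 and Pdss2, the subunits of the enzyme that makes the ubiquinone side chain, differed in opposite directions in the eTreg comparison of genotypes. Pdss1 differed by 0.55 ± 0.14 (SE; adjusted P = 0.184) and Pdss2 by -0.44 ± 0.13 (SE; adjusted P = 0.275). Cyc1, the cytochrome c1 subunit of complex III that the naming rule leaves out, was higher by 0.22.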

How the data were processed

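Clariom S mouse arrays measured total RNA of the sorted Tregs. The authors deposited log2 signals per transcript cluster, made from the scans by robust multi-array average in Affymetrix Expression Console 1.1 (per the labels), which scales all arrays to 1 distribution of probe values and so removes any global shift. Of 28846 entries, 6640 control probe sets and 3 without a symbol were left out, and the other 22203 were fitted in 1 limma 3.58.1 model (R 4.3.3) of the 4 groups with Benjamini-Hochberg adjustment over all of them for each contrast. The fit was tested on simulated data. Groups came from the sample titles. Arrays of a subset came from separate chimeras and both subsets were sorted from them, but which cTreg and eTreg array share a chimera was not given in the sources used here, so the model treats them as independent. The number of arrays limits the precision. The members and all gene lists were chosen with earlier results of these data known. Values per array are given for members with an adjusted P below 0.05 (none) and, in each complex, for the largest rise and fall of each genotype contrast with an unadjusted P below 0.05; other genes given so are said to be. Genes of other lists are named at an adjusted P below 0.05 between subsets or an unadjusted P below 0.05 between genotypes. Alternatives were the replicate number as a block, array weights, an intensity trend, median centring, a signal filter, averaging of rows, separate fits of 2 groups and leaving out each array, and, chosen after the data were seen, equal interquartile ranges and leaving out the 4 arrays numbered 1.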

Additional observations from a re-analysis of the deposited data

How the results depend on the processing

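The direction of the members' median held in every alternative for control eTregs against control cTregs and for eTregs labelled KO against control eTregs, and 0 members passed the adjustment between genotypes in any alternative. In the control subset comparison, 0 members passed it, against 2 with the replicate number as a block (Atp5sl, adjusted P = 0.0300, and Cox8b, 0.0380, by limma), 1 with that block within genotype (0.0194), 1 with the filter at the median signal, 4 with array weights and 1 with equal interquartile ranges, and 0 to 1 when 1 array was left out; Atp5sl was among them each time. Its median ran from -0.158 to -0.023. In KO-labelled cells the median of -0.025 turned to 0.0083 without the arrays numbered 1 and ran from -0.081 to 0.068 when 1 array was left out, with 0 calls throughout. Between genotypes the counts are of members with an unadjusted P below 0.05. For eTregs the 3 became 20 with the replicate block, 11 with array weights, 5 with the intensity trend, 14 without the arrays numbered 1 and 2 to 14 when 1 array was left out (median 0.040 to 0.195). For cTregs the 1 became 5 with the replicate block, 0 after subtraction of array medians, 0 in a fit of the 2 groups alone, 2 with equal interquartile ranges, 0 without the arrays numbered 1 and 0 to 2 when 1 array was left out (median -0.023 to 0.106). For the interaction the 3 became 8 with the replicate block, 5 with the block within genotype, 5 with array weights, 6 without the arrays numbered 1 and 1 to 5 when 1 array was left out. Its median of 0.053 turned to -0.00846 with equal interquartile ranges and ran from -0.020 to 0.136 when 1 array was left out. The cause of these changes was not tested. The replicate numbers were not taken to pair the arrays, since no source says that they mark a chimera and not every pair of same-numbered arrays correlated above 0.1 in its deviations. These correlations were 0.303, 0.290 and 0.044 between the KO-labelled subsets, 0.222, 0.146, 0.102 and 0.071 between the control subsets, 0.291, 0.279 and 0.010 between the eTreg genotypes and 0.258, 0.160 and 0.082 between the cTreg genotypes. In 11 of the 13 pairs the array correlated best with its own number, which is a hint from the data and not from the design.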
